A study of Mus musculus with 14 samples.

Results

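In the mouse retina, 524 of 53204 open chromatin elements carried a peak in rods and in double-sorted green cones, and none in photoreceptors that lack Nrl. An element is a 200 bp window of the authors' merged ATAC-seq peak list, and it was counted as present in a cell type when at least 1 bp of it lay within 100 bp of a peak summit of that cell type. The 524 elements were therefore chosen from the peak calls of 3 cell types, and the ATAC-seq values of their libraries are given below as descriptions. The rule used no values of single-sorted green cones, RNA, DNA sequence or position in the genome. The authors' merged list did hold elements with a peak only in single-sorted green cones. Peaks of those cells thus had a part in which windows exist. By the same rule 21863 elements were present in all 3 lists, 3043 in the rod list only, 3774 in the rod and Nrl-/- lists only and 8788 in the double-sorted green cone and Nrl-/- lists only.

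ATAC-seq, in which the Tn5 transposase cuts accessible DNA, was run on 2 libraries per cell type, and RNA-seq on 3 libraries each of rods and Nrl-/- photoreceptors. All cells were sorted by GFP from retinas of C57BL/6 mice at 8 weeks of age. Rods came from Nrl-eGFP mice, in which the Nrl promoter drives the reporter. Green cones came from Opn1mw-GFP mice and were sorted 1 or 2 times, so that a single sort of this rare cell type can keep rods. For single-sorted replicate 1 a library table of the study names the Nrl-eGFP;Nrl-/- line instead of the Opn1mw-GFP line of the labels, which were followed here. That library read 43.0 CPM at the Nrl element described below, where both Nrl-/- libraries were at 0. Nrl-/- photoreceptors came from Nrl-eGFP;Nrl-/- mice, whose would-be rods take on features of blue cones, so the Nrl-/- libraries hold mutant cells rather than native blue cones. Retinas were from males, with females also used for the double-sorted green cones. Sorted cells were measured in bulk, so a lower share of open cells and a lower signal per cell cannot be told apart.

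NRL is a basic leucine zipper factor of the MAF family that directs a photoreceptor precursor to the rod fate and, with the homeodomain factor CRX, activates rod genes, among them those of the nuclear receptors NR2E3 and ESRRB. In its absence precursors form cells with S opsin and cone phototransduction proteins. Nuclear receptors bind the core site AGGTCA, often with further bases before it, and CRX and OTX2 bind CTAATCC and close variants. Elements with a peak call in a rod and a native cone and none in the mutant fall outside a simple division of peak calls into rod and cone. A missing peak call does not show that the signal is absent.

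The ATAC-seq libraries held between 1062403 (a double-sorted green cone library) and 5770075 counts in elements, and the RNA-seq libraries between 18376770 and 26312895 counts in genes. The rod and Nrl-/- RNA carried the markers of their labels. Gnat1, the rod transducin alpha subunit, had 581136 ± 92513 normalised read counts in rods and 1198 ± 280 in Nrl-/- photoreceptors (SD, n = 3 each), and Opn1sw, the S opsin, had 8723 ± 46.9 and 1401228 ± 109304. Nrl itself had 16522 ± 2817 in rods and 730 ± 168 in Nrl-/- photoreceptors (log2 fold change 4.48 ± 0.20, SE; adjusted p = 1.04e-08, edgeR glmTreat), so that it was not at 0 in the mutant. Genes marking bipolar cells summed to between 81.0 and 110 CPM in rods and between 1439 and 1589 in Nrl-/- photoreceptors, and those marking Müller glia to between 116 and 178 and between 765 and 900. Of 8 bipolar genes tested, only 2 were called higher in the mutant and 1 was called higher in rods. Of 9 Müller glia genes tested, 2 were called higher in the mutant and 0 higher in rods. Microglia genes summed to between 3.20 and 5.66 CPM in rods and between 22.5 and 48.8 in the mutant, with 5 of 7 called higher in the mutant, and AP-1 and immediate early genes to between 84.9 and 132 and between 465 and 601, with 4 of 9 called. The part of these genes and cells in the results below was not tested.

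Sequences of 7 of the elements are shown as examples. They are the Nrl element, 2 others with a wide gap between the Nrl-/- libraries and the rest, and 4 elements near genes whose RNA was higher in rods. These 4 all hold AGGTCA or CTAATCC and are not typical. Of the 80 elements whose nearest gene was higher in rods, 26 held AGGTCA and 9 held CTAATCC. Each is the plus strand of GRCm38, 5′ to 3′, and capitals mark AGGTCA with the base A before it where AAGGTCA occurs, and CTAATCC, on either strand.

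Nrl intron, chr14:55521184-55521383: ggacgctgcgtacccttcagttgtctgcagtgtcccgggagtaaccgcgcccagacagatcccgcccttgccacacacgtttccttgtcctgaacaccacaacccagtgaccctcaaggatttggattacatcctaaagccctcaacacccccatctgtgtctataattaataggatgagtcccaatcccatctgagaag
Peli2 intron, chr14:48224822-48225021: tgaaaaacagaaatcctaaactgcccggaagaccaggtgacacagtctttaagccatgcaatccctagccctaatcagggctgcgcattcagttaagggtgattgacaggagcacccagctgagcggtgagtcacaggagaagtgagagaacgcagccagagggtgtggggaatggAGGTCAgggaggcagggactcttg
Dcaf13 intron, chr15:39146278-39146477: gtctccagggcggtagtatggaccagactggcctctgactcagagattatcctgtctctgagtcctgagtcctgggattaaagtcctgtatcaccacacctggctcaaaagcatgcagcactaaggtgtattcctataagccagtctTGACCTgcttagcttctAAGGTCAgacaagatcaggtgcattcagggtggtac
Cpm intron, chr10:117640036-117640235: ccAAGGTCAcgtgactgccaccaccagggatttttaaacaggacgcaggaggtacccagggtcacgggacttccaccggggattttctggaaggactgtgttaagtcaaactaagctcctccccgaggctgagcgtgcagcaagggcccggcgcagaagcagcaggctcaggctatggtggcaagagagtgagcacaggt
Selenbp1 upstream, chr3:94917959-94918158: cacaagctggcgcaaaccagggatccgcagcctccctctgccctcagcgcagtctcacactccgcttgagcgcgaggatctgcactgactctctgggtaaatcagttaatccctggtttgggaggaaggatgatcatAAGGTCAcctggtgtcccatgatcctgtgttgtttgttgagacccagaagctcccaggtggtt
Esrrb intron, chr12:86456392-86456591: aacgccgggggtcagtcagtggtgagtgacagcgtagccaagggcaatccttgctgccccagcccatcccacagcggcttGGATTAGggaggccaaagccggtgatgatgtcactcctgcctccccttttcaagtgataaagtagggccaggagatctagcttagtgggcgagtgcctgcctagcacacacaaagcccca
Mindy4 intron near Aqp1, chr6:55306481-55306680: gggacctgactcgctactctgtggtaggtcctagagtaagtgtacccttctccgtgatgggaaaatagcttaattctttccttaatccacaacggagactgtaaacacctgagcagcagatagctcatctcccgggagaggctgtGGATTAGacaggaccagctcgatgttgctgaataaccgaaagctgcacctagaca

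The Nrl and Peli2 elements differ in this respect. The first holds neither motif, whereas the second holds 1 AGGTCA. The Dcaf13 element has 2 copies of AGGTCA, 1 of them in the longer form, the Cpm and Selenbp1 elements each have 1 copy in the longer form, and the Esrrb and Aqp1 elements each have 1 CTAATCC.

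The gap was measured between the lowest of the 4 rod and double-sorted green cone libraries and the highest Nrl-/- library. The element with the widest gap lay in an intron of Nrl, 2968 bp downstream of its TSS. Its signal was 100.2 and 107 CPM (counts scaled to a common library size by TMM over all 8 ATAC-seq libraries) in the rod libraries, 17.1 and 17.1 in the double-sorted green cone libraries, 43.0 and 31.0 in the single-sorted ones, and 0 and 0 in the Nrl-/- libraries. All rod and green cone libraries lay above both mutant libraries, and rods were the highest. Counts were mostly even (62.7 to 79.3% of elements), as when both mates of a fragment are counted, so a count of 0 was taken to allow 3 fragments or 6 counts per library. Against that floor the mean was at least 53.8-fold higher in rods and at least 8.88-fold higher in double-sorted green cones than in Nrl-/- photoreceptors. Whether the mutant allele still holds these bases was not tested.

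The element with the next widest gap lay in an intron of Peli2, which codes for an E3 ubiquitin ligase of Toll-like receptor signalling, and of the non-coding gene Gm6498, whose TSS is 26206 bp away. It read 48.9 and 49.3 CPM in rods, 22.5 and 23.4 in double-sorted green cones, 33.2 and 32.4 after a single sort, and 1.66 and 2.27 in Nrl-/- photoreceptors. The green cone libraries lay between those of rods and the mutant, and no groups of rods, green cones and mutant overlapped. The fitted log2 fold change was 4.55 ± 0.30 (SE) for rods over Nrl-/- and 3.48 for double-sorted green cones over Nrl-/-.

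Elements in introns of Plekhm3 and Dcaf13 behaved alike in rank. The first (chr1:64945457-64945656) had 25.2 and 25.04 CPM in rods, 8.55 and 9.88 in double-sorted green cones, 16.6 and 19.6 after a single sort and 1.66 and 0.454 in Nrl-/- photoreceptors. The second had 38.1 and 45.0 in rods, 12.4 and 8.98 in double-sorted green cones, 14.9 and 10.03 after a single sort and 0.828 and 1.82 in Nrl-/- photoreceptors. In both, the rod libraries were the highest and the mutant libraries the lowest, with no overlap between these groups. An element in an intron of Ergic1 (chr17:26621565-26621764) was less uneven, at 28.5 and 24.9 CPM in rods, 17.1 and 16.2 in double-sorted green cones, 21.5 and 23.7 after a single sort and 4.14 and 4.77 in the mutant.

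In a pair of other leading elements the green cones were as high as the rods. The intron of Krt18 (chr15:102028943-102029142), a keratin gene, had 8.33 and 13.2 CPM in rods, 13.99 and 10.8 in double-sorted green cones, 11.2 and 9.12 after a single sort and 0.828 and 1.82 in the mutant. An intergenic element 42592 bp from 1700016L21Rik (chr1:80403240-80403439) had 8.12 and 10.2 in rods, 17.1 and 8.98 in double-sorted green cones, 4.88 and 9.12 after a single sort and 1.66 and 1.82 in the mutant. Rod and double-sorted green cone libraries overlapped in both elements.

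Zfp36l2, an RNA-binding protein that promotes decay of mRNAs with AU-rich elements, was the only gene nearest to 3 of the 524 elements. The promoter element 639 bp upstream of its TSS (chr17:84188486-84188685) had 103.9 and 116 CPM in rods, 32.6 and 41.3 in double-sorted green cones, 49.3 and 41.0 after a single sort and 7.45 and 8.63 in Nrl-/- photoreceptors. The one 125 bp upstream (chr17:84187972-84188171) had 93.3 and 94.1 in rods, 21.0 and 13.5 in double-sorted green cones, 38.1 and 36.9 after a single sort and 4.14 and 6.36 in the mutant. In both promoter elements every rod and green cone library was above both mutant libraries, with the log2 fold change of rods over Nrl-/- at 3.73 ± 0.18 and 4.06 ± 0.20 (SE). The third element, 50281 bp upstream in an intron of Thada (chr17:84238128-84238327), was weaker, at 14.8 and 12.99 CPM in rods and 1.66 and 4.99 in the mutant, and the double-sorted green cone libraries were at 10.1 and 4.49, so that 1 of them fell below the higher mutant library.

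Among other promoter elements, that of Syne1, a nesprin that links the nucleus to the cytoskeleton, had 14.4 and 17.7 CPM in rods, 6.996 and 5.39 in double-sorted green cones, 6.10 and 6.38 after a single sort and 2.48 and 2.04 in the mutant. The promoter element of Kat2b, a histone acetyltransferase, had 10.8 and 9.23 in rods, 9.33 and 13.5 in double-sorted green cones, 8.55 and 6.38 after a single sort and 1.66 and 4.31 in the mutant. Rods were above green cones for Syne1 and overlapped them for Kat2b.

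Of the genes in 7 lists of photoreceptor genes, 9 were nearest to 1 of the 524 elements each, and no gene of rod phototransduction was among them. Of the 16835 genes nearest to any element, 495 were nearest to members of the 524. At that rate the absence of a list of 21 genes says little. By RNA, 13 of 21 tested rod phototransduction genes were higher in rods and 0 lower, and 0 of 11 cone phototransduction genes were higher and 11 lower. Of rod transcription factors 6 of 7 were higher in rods, and of cone transcription factors 3 of 4 were higher in the mutant. Of outer segment genes 7 of 15 were higher in rods and 1 in the mutant, and of synapse genes 1 of 12 in each. The factors beside elements were Nrl, the rod nuclear receptor Esrrb and the cone thyroid hormone receptor Thrb. The element in the intron of Esrrb had 34.4 and 41.0 CPM in rods, 17.9 and 12.6 in double-sorted green cones, 23.0 and 19.2 after a single sort and 12.4 and 11.4 in the mutant, so that the lowest green cone library stood just above the mutant. The Thrb intron element (chr14:17752581-17752780) had 18.3 and 22.2 in rods, 12.4 and 15.3 in double-sorted green cones and 5.80 and 6.58 in the mutant, while the single-sorted green cones read 9.77 and 6.38 and overlapped it.

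Cone phototransduction was represented by Opn1mw and Gnb3. The element 11648 bp upstream of Opn1mw, the M opsin gene (chrX:74115718-74115917), had 12.9 and 11.5 CPM in rods, 4.66 and 8.98 in double-sorted green cones, 6.35 and 9.12 after a single sort and 2.48 and 2.27 in the mutant. The rod libraries were thus the highest at an element near a cone gene. The Gnb3 promoter element (chr6:124840486-124840685), at the gene of the cone transducin beta subunit, went the other way: the mutant libraries read 50.9 and 31.1 CPM, the rods 24.2 and 27.9, and the double-sorted green cones 8.55 and 45.8. It lay within the interval of an Nrl-/- peak, and the nearest Nrl-/- summit was 305 bp from its centre.

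The elements nearest to synapse genes were 76955 bp from Elfn1, an adhesion protein that rods place at their synapse with bipolar cells, and 18118 bp from Cacna2d4, a calcium channel subunit of photoreceptor terminals. The Elfn1 element (chr5:139984721-139984920) had 25.8 and 21.5 CPM in rods, 10.9 and 8.98 in double-sorted green cones and 4.97 and 3.63 in the mutant. The Cacna2d4 element, in an intron of Dcp1b (chr6:119218306-119218505), had 23.3 and 18.8 in rods, 6.22 and 8.98 in double-sorted green cones and 7.45 and 4.09 in the mutant, so that the green cones and the mutant overlapped. The elements near Rdh12, a retinol dehydrogenase, and Impg1, a matrix proteoglycan around outer segments, had 9.16 and 14.7 and 7.08 and 3.77 CPM in rods, against 4.97 and 3.63 and 4.14 and 3.63 in the mutant. In double-sorted green cones the Rdh12 element read 9.33 and 2.69 CPM, and the Impg1 element read 3.11 and 3.59, below both mutant libraries.

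**Figure D1:**
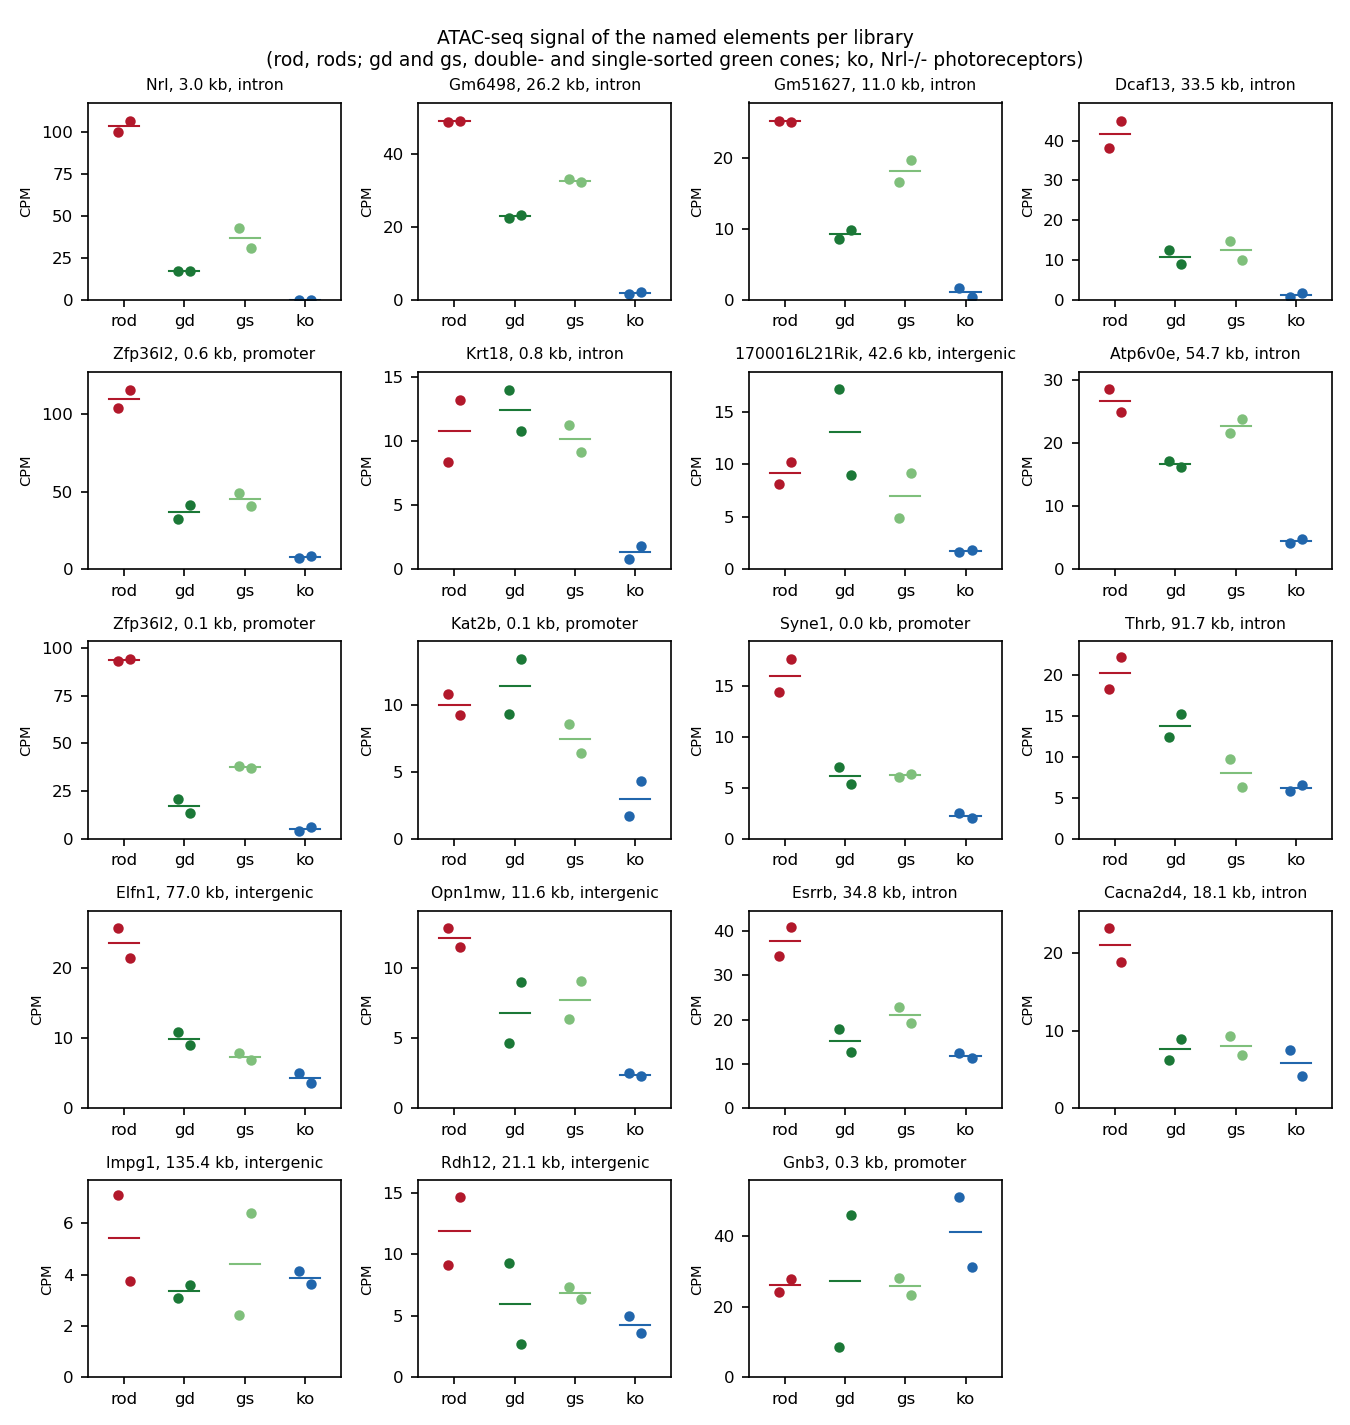
ATAC-seq signal in CPM (y axis, from 0) at 19 named elements, each titled by its nearest gene, the distance to that gene's TSS and its place, with each point 1 library and each bar the mean of 2. The Nrl element was at 0 in both Nrl-/- libraries and above 17 CPM in every other library, whereas at the Gnb3 promoter the Nrl-/- libraries, at 50.9 and 31.1 CPM, were above both rod libraries.

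Over the 524 elements the median signal was 10.5 and 11.3 CPM in the rod libraries, 8.55 and 8.98 in the double-sorted green cone libraries, 8.55 and 8.21 in the single-sorted ones, and 4.76 and 4.54 in the Nrl-/- libraries. The mutant was therefore lower as a group and far from silent. Of the 524, 302 had a mean Nrl-/- signal above the 5th percentile of the elements that were in the Nrl-/- list, and 118 were above the 25th (7.19 CPM). Both rod libraries exceeded both Nrl-/- libraries at 425 elements, beside 34.2% of all elements. Both double-sorted green cone libraries did so at 281, beside 21.3%, and all 4 of these libraries did so at 259, beside 5.58%. Rods had the higher mean than double-sorted green cones at 357 of the 524 elements and the lower at 167. Shares over all elements are not given for the 357 and 167, and the rod list had the higher limit, as given below.

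The signal was weak where it was present. In the rod list the median −log10 q of the summits was 67.7 at the 524 elements and 229 at elements in all 3 lists, and in the double-sorted green cone list it was 13.3 and 40.9. The lists had unlike limits, as the lowest −log10 q was 36.0 in the rod list, 15.3 in the Nrl-/- list and 8.98 in the double-sorted green cone list. The counts behind the values were small in the double-sorted green cones, with medians of 11 and 10 counts per element in the 2 libraries, beside 50.5 and 60 in rods and 11.5 and 20 in the mutant.

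In fits across all elements, 180 of the 524 were called higher in rods than in Nrl-/- photoreceptors and 1 lower, beside 6.38% and 21.0% of the 49364 elements tested (edgeR glmTreat against a log2 fold change of 1, adjusted p under 0.1). The 1 lower, an exon near Fancl named after its values were seen, had 2.50 and 1.88 CPM in rods and 7.04 and 10.2 in the mutant, and it was lost without rod replicate 2 or Nrl-/- replicate 2 (0 lower). Among 390 that passed the filter on low counts, 1 was called higher in double-sorted green cones than in the mutant and 0 lower, beside 0.0374% and 0.00234% of all tested. At an unadjusted p under 0.05 (edgeR glmTreat) the numbers were 49 and 2, beside 1865 and 1154 of the 42732 elements tested. The 1 called was the Nrl element. Without double-sorted green cone replicate 4 the count was 30, without replicate 3 it was 9 and without Nrl-/- replicate 2 it was 2. Leaving out a library left 1 in its group, whose spread was then assumed to be that of the other group. Between rods and double-sorted green cones, 28 of 520 were called higher in rods and 3 in green cones, beside 6.43% and 18.7%. The 3 were near Pde7b, Ddx20 and Cdkal1, named after their values were seen. Without double-sorted green cone replicate 4 the counts were 71 and 5, and without either rod replicate they were 13 and 0. With DESeq2 76 of the 524 were called higher in rods than in the mutant and 7 higher in rods than in double-sorted green cones. These libraries chose the elements, so the counts are a description. The median log2 fold change of the elements was 1.23 for rods over Nrl-/-, where that of all elements was −0.07, and 0.33 for rods over double-sorted green cones. With each library scaled by its processed reads, the median of all elements for rods over Nrl-/- was 0.46 and that of the 524 was 1.74, and for rods over double-sorted green cones they were 0.40 and 0.77.

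**Figure D2:**
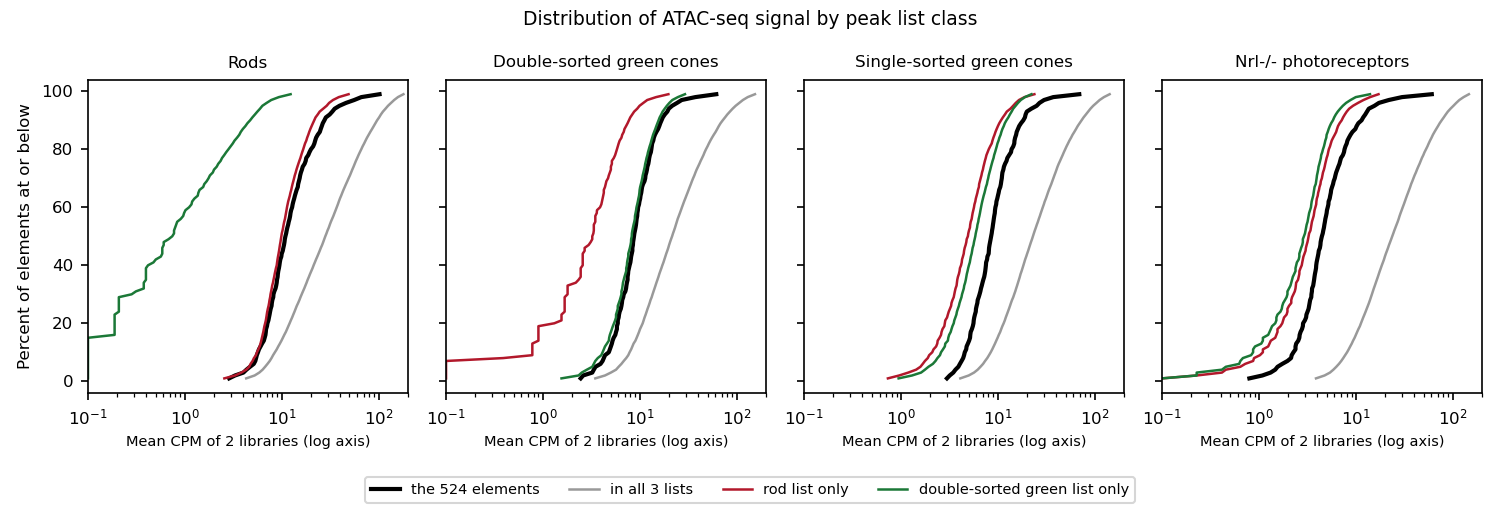
Cumulative distribution of the mean CPM of 2 libraries (x axis, log scale, with values under 0.1 drawn at 0.1) in each cell type, for the 524 elements and for elements in all 3 lists, in the rod list only and in the double-sorted green cone list only. The 524 elements followed the rod-only elements in rods and the green-only elements in double-sorted green cones, and in Nrl-/- photoreceptors they lay between those and the elements of all 3 lists.

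The distance to the mutant's peaks divided the elements. The summit window rule placed 94 of them with an Nrl-/- summit at least 200 and under 300 bp from their centre, whereas 174 were at least 10000 and under 100000 bp away. In all, 165 lay within the whole interval of an Nrl-/- peak, with median signals of 10.6 and 10.5 CPM in rods and 7.45 and 7.04 in the mutant. The other 359 lay outside every such interval, with 10.4 and 11.7 in rods and 4.14 and 4.09 in the mutant. Of the 180 called higher in rods than in the mutant, 163 belonged to the 359 and 17 to the 165. The Nrl-/- peaks were called on the same Nrl-/- libraries. The split itself thus favours a lower mutant signal and more such calls outside the intervals. Promoters were divided likewise, since 66 of 79 promoter elements lay within an Nrl-/- peak interval.

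Just inside the rule, the element near Ddx20, which touched an Nrl-/- summit window without overlapping it, had a mean of 22.5 CPM in rods, 63.3 in double-sorted green cones and 41.8 in the mutant. The next 4 inside, near Fbxo36, Aebp2, Ttc30b and Gm14207, had means of 3.004 to 6.59 CPM in rods and 4.11 to 7.09 in the mutant. Just outside, the 5 elements that overlapped an Nrl-/- window by 1 to 4 bp, near Cep19, Zdhhc1, Akr1b3, Vps37c and Cbfb, had 6.57 to 16.8 in rods and 2.56 to 15.6 in the mutant. The values on the 2 sides of this limit overlapped. At the other end of the scale from Nrl, the 4 elements with the smallest gap, near Zc3hav1l, Tubb4b, Grwd1 and Zfp111, each had 1 double-sorted green cone library at 0 to 0.777 CPM.

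The rule used no values of green cones sorted 1 time, though their peaks had a part in the merged list. The mouse line of replicate 1 is in doubt, as stated above. Of the 524 elements, 425 (81.1%) were in the peak list of these cells, compared with 98.9% of elements in all 3 lists, 58.3% of those in the double-sorted green cone list only, 78.6% of those in the rod and Nrl-/- lists only, 87.6% of those in the green cone and Nrl-/- lists only and 38.9% of those in the rod list only. Over all elements the share was 80.2%, close to that of the 524. The share over all elements takes in those found only in the single-sorted list, which raise it, so it is not a neutral background. Both single-sorted libraries exceeded both Nrl-/- libraries at 343 of the 524, beside 28.0% of all elements. In the edgeR glmTreat fit against Nrl-/-, whose libraries did enter the choice, 515 of the elements were tested. At an unadjusted p under 0.05, 98 were higher after a single sort and 0 lower, beside 2486 and 1480 of 50605 elements. After adjustment 31 were called higher and 0 lower, beside 1.83% and 1.03%. Without single-sorted green cone replicate 1 the count was 19, with DESeq2 it was 6, and with processed reads as library sizes it was 8. The median log2 fold change was 0.81, and 0.45 with processed reads, where that of all elements was −0.37. Those called included the Nrl, Peli2, Plekhm3, Dcaf13, Krt18 and Ergic1 elements and both Zfp36l2 promoter elements.

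The elements of the rod list only had medians of 5.13 and 4.56 CPM in single-sorted green cones, 3.11 and 3.59 in double-sorted ones and 3.31 and 3.18 in the mutant. At the 524 elements the single-sorted mean was above the double-sorted mean in 253. The order rods, single-sorted, double-sorted, mutant was found at 137, and the Nrl, Peli2, Plekhm3, Dcaf13 and Zfp36l2 promoter elements were among them. Shares over all elements are not given for these counts, and the choice of the elements favours rods above the mutant. The part of rods in the green cone values of single elements was not tested.

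By position the elements were mostly distal. An intron held 54.0% of them, intergenic sequence 23.9% and an exon outside promoters 7.06%, and 15.1% (79) were promoters, which here run from 1000 bp before to 100 bp after a RefSeq TSS. Promoters were 26.6% of all elements and 47.8% of those in all 3 lists, and 10.2% of those in the rod list only. Outside the Nrl-/- peak intervals only 13 of 359 elements were promoters. The median distance to the nearest TSS was 11758.5 bp, compared with 8398.5 bp for all elements and 435 bp for those in all 3 lists. The elements were spread over 495 nearest genes, of which 467 had 1 element, 27 had 2 and Zfp36l2 had 3. Within 10 Mb of the Nrl element on chromosome 14 lay 14 of them (2.67%), beside 1.27% of all elements, and the part of sequence linked to the mutant allele in these was not tested.

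The core site of nuclear receptors was frequent. AGGTCA, searched on both strands as an exact match, was in 142 of the 524 elements (27.1%), compared with 14.9% of all elements of the same length and 11.9% of those in all 3 lists. Without promoters the shares were 29.0% for the 524 elements and 16.7% for those in all 3 lists. Among distal elements it was in 24.6% of the rod-only and 23.6% of the green-only class, and in 13.3% to 16.0% of the classes that the Nrl-/- list shared with 1 other list or held alone. The longer AAGGTCA, which contains AGGTCA and was added after the first result was seen, was in 10.3% of the distal members of the 524 and in 9.0%, 6.4% and 4.3% of rod-only, green-only and all-list distal elements. AGGTCA was in 31.5% of the 359 elements outside Nrl-/- peak intervals and in 17.6% of the 165 within. It was in 75 of the 180 elements called higher in rods than in the mutant, a call made with libraries that chose the elements. The share over all elements called higher in rods is not given, so this count is a description only.

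The shares of the other motifs differed by kind. CTAATCC, the CRX and OTX2 site, was in 9.5% of the 524 elements and 7.6% of all elements, and in 11.2% and 10.4% of distal elements of the 524 and of all 3 lists. The MAF core site TGCTGAC, which is part of the site of NRL, was in 5.5% compared with 4.0%, and the AP-1 site TGANTCA in 7.6% compared with 6.3%. The core of the CTCF site was less frequent, at 6.7% of distal elements compared with 11.96% of all distal elements, 13.2% of distal elements in all 3 lists and 5.9% of the green-only class. The homeodomain site TAATTA was in 3.2% compared with 4.7% of all elements and 9.1% of the Nrl-/- only class. It was in 2.7% of elements in all 3 lists, 4.3% of the rod-only and 4.7% of the green-only class. The ETS site CCGGAAG was in 1.9% compared with 5.5% of all elements, and without promoters in 1.6% compared with 2.2%. The GC box GGGCGG was in 20.6% of the elements and 26.8% of all, and in 7.0% of those outside Nrl-/- peak intervals. Without promoters the shares were 14.4%, 14.3% and 5.5%, so that the 524 did not differ from all distal elements. A match is a description of the letters and says nothing of whether a factor is bound.

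**Figure D3:**
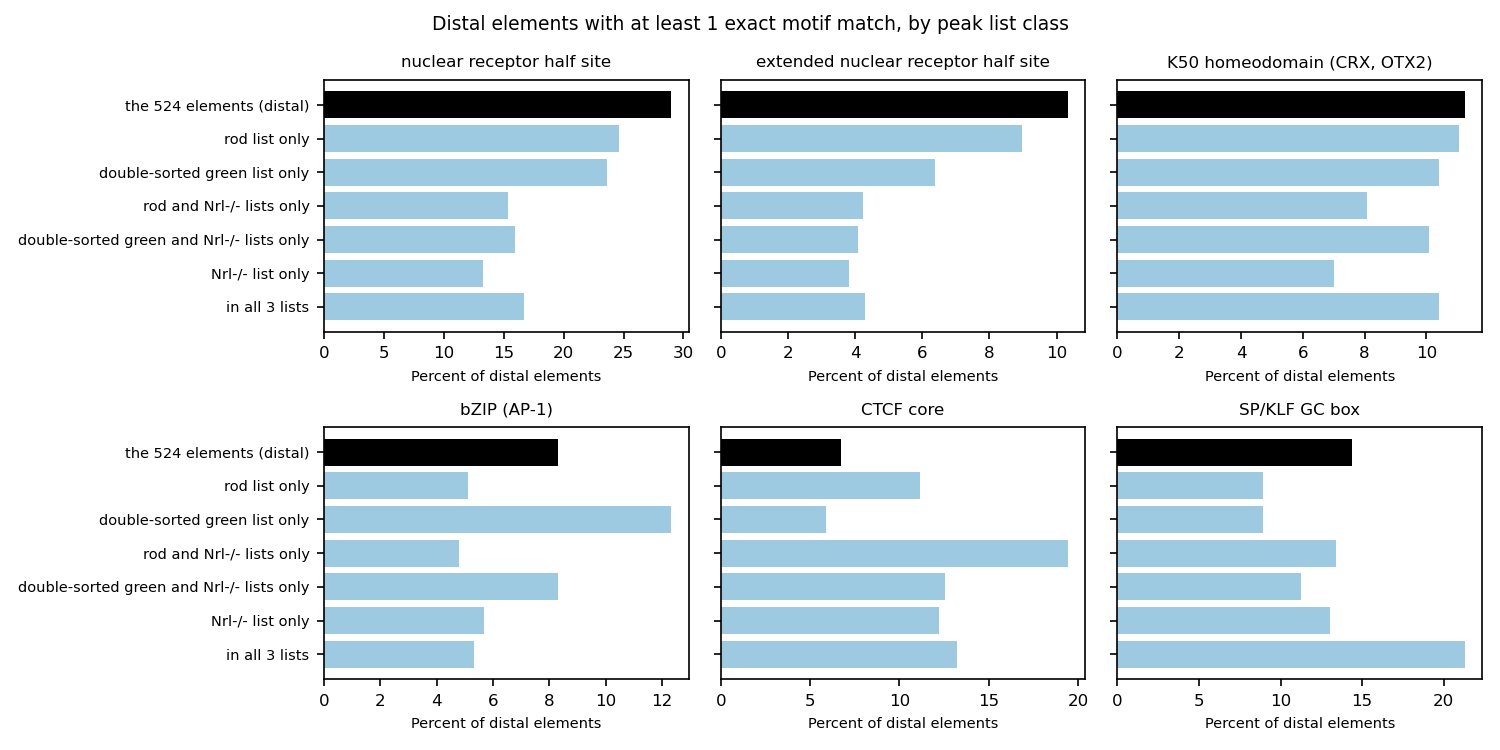
Share of distal elements with at least 1 exact motif match on either strand (x axis, percent, from 0), for the 524 elements (black) and 6 other classes of the peak lists (blue), in 6 panels for 6 motif families. AGGTCA was in 29.0% of the distal members of the 524 and in 13.3% of the Nrl-/- only class.

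RNA tested the surroundings of the elements with libraries that had not chosen them. Of 394 nearest genes tested, 72 (18.3%) were higher in rods and 26 (6.60%) were higher in Nrl-/- photoreceptors, beside 6.88% and 13.3% of 12327 genes (edgeR glmTreat against a log2 fold change of 1, adjusted p under 0.05). The median log2 fold change was 0.31 at these genes and 0.01 over all genes. Genes nearest to elements in the rod list only gave 17.4% and 6.84%, those of the double-sorted green cone list only 7.89% and 20.04%, and those of all 3 lists 7.03% and 9.94%, so that the shares beside the 524 elements were nearest to those beside rod-only elements. The differences between these classes were not tested. Outside Nrl-/- peak intervals the shares were 59 of 251 genes (23.5%) and 17 (6.77%).

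**Figure D4:**
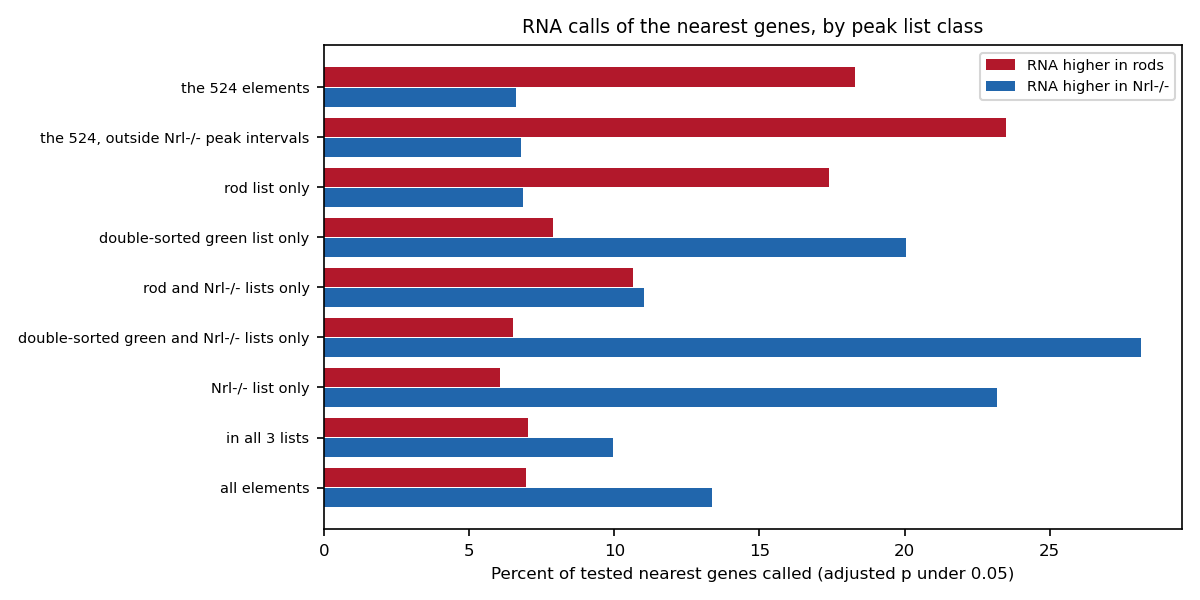
Percent of the tested nearest genes of each class of elements (x axis, from 0) whose RNA was called higher in rods (red) or in Nrl-/- photoreceptors (blue). For the 524 elements the values were 18.3% and 6.60%, and for the double-sorted green cone and Nrl-/- lists only they were 6.49% and 28.1%.

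Among the called genes whose higher cell type averaged 100 or more normalised read counts and whose libraries did not overlap, the 6 largest changes towards rods were those of Aqp1, a water channel, Glb1l3, a galactosidase-like protein, St8sia1, the sialyltransferase that makes the ganglioside GD3, Selenbp1, a selenium-binding protein, Zfp36l2, and Cpm, a membrane carboxypeptidase. Aqp1 had 1931, 1938 and 1979 normalised read counts in rods and 11.3, 15.7 and 5.85 in Nrl-/- photoreceptors (log2 fold change 7.44 ± 0.22, adjusted p = 2.2e-10). Its element lay 29718 bp upstream of its TSS and read 19.2 and 20.9 CPM in rods, 10.9 and 7.19 in double-sorted green cones and 8.28 and 2.72 in the mutant. St8sia1 had 2415, 2788 and 2712 counts in rods and 25.3, 16.6 and 26.8 in the mutant (6.82 ± 0.18, adjusted p = 9.05e-11). Glb1l3 had 1145 ± 158 and 8.55 ± 5.14 counts (SD, n = 3; 7.01 ± 0.30, adjusted p = 4.43e-09), and its element read 9.58 and 11.3 CPM in rods, 3.11 and 12.6 in double-sorted green cones and 1.24 and 0.454 in the mutant. Selenbp1 had 548, 264 and 251 counts in rods and 2.61, 8.75 and 0.836 in the mutant (6.40 ± 0.53, adjusted p = 2.25e-06). The St8sia1 element (chr6:142992112-142992311) read 7.71 and 12.6 CPM in rods, 13.2 and 3.59 in double-sorted green cones and 4.55 and 4.31 in the mutant, and the Selenbp1 element 8.33 and 9.79, 4.66 and 7.19, and 4.55 and 2.72. Neither element was among the 180 called higher in rods, and at the St8sia1 element 1 green cone library was below both mutant libraries.

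Zfp36l2 had 561, 543 and 538 counts in rods and 8.71, 17.5 and 7.52 in the mutant (5.57 ± 0.27, adjusted p = 1.63e-08), and Cpm had 1132 ± 111 and 37.2 ± 3.94 (4.90 ± 0.17, adjusted p = 1e-09). The Cpm element read 24.2 and 26.4 CPM in rods, 9.33 and 7.19 in double-sorted green cones, and 3.31 and 1.36 in the mutant. Esrrb had 5459, 6403 and 5155 counts in rods and 328, 379 and 254 in the mutant (4.12 ± 0.17, adjusted p = 4.54e-09). Rdh12 and Syne1 were also called higher in rods, by 2.36 ± 0.14 and 1.83 ± 0.15 on the log2 scale (adjusted p = 1.4e-06 and 0.00011). Plekhm3, which holds an element without being the gene of its nearest TSS and was chosen after its values were seen, had 2136 ± 178 and 622 ± 137 counts (1.76 ± 0.16, adjusted p = 0.000405), whereas Peli2, chosen in the same way, had 420 ± 56.7 and 200.1 ± 51.5 (1.04 ± 0.21, adjusted p = 0.631).

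Some genes beside leading elements did not pass the test. Dcaf13 had 1480 ± 72.2 counts in rods and 1155 ± 219 in the mutant, Krt18 4340 ± 525 and 3539 ± 948, and Kat2b 788 ± 55.9 and 1222 ± 132 (adjusted p = 1 for each). Atp6v0e, nearest to the Ergic1 element, had 559 ± 29.8 and 270 ± 67.4 (adjusted p = 0.682). Elfn1, Cacna2d4, Impg1 and Thrb had log2 fold changes between −0.77 and 0.71 and an adjusted p of 1. Gm6498 was called at 2.92 ± 0.76 (adjusted p = 0.0342) on counts of only 16.2 ± 3.77 and 2.01 ± 2.198, and the call was lost with DESeq2 (adjusted p = 0.34) and without 5 of the 6 libraries in turn (adjusted p from 0.0761 to 0.138).

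The 26 genes higher in Nrl-/- photoreceptors included the cone genes Opn1mw and Gnb3. Opn1mw had 580, 661 and 615 counts in rods and 47634, 58159 and 65761 in the mutant (log2 fold change −6.55 ± 0.18, adjusted p = 8.93e-11), while the element upstream of it was lower in the mutant. Gnb3 had 4845 ± 795 and 247129 ± 9113 (−5.70 ± 0.18, adjusted p = 3.17e-10). Ahcyl2, which codes for a protein related to adenosylhomocysteinase, had 89.5 ± 10.6 and 926 ± 118 (−3.39 ± 0.17, adjusted p = 6.64e-08) and was nearest to 2 elements, the stronger of which in the fit (chr6:29814287-29814486) read 13.3 and 9.04 CPM in rods, 1.55 and 5.39 in double-sorted green cones and 0.414 and 1.82 in the mutant. AI839979, Dscam, a cell adhesion molecule of neurons, and Nrsn1, a neuronal membrane protein, were higher in the mutant by log2 fold changes of −3.39, −3.05 and −2.96 for rods over Nrl-/- (adjusted p = 0.000119, 8.04e-05 and 0.000156). At the Nrsn1 element the rods (3.12 and 4.33 CPM) and the mutant (3.31 and 3.18) overlapped.

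**Figure D5:**
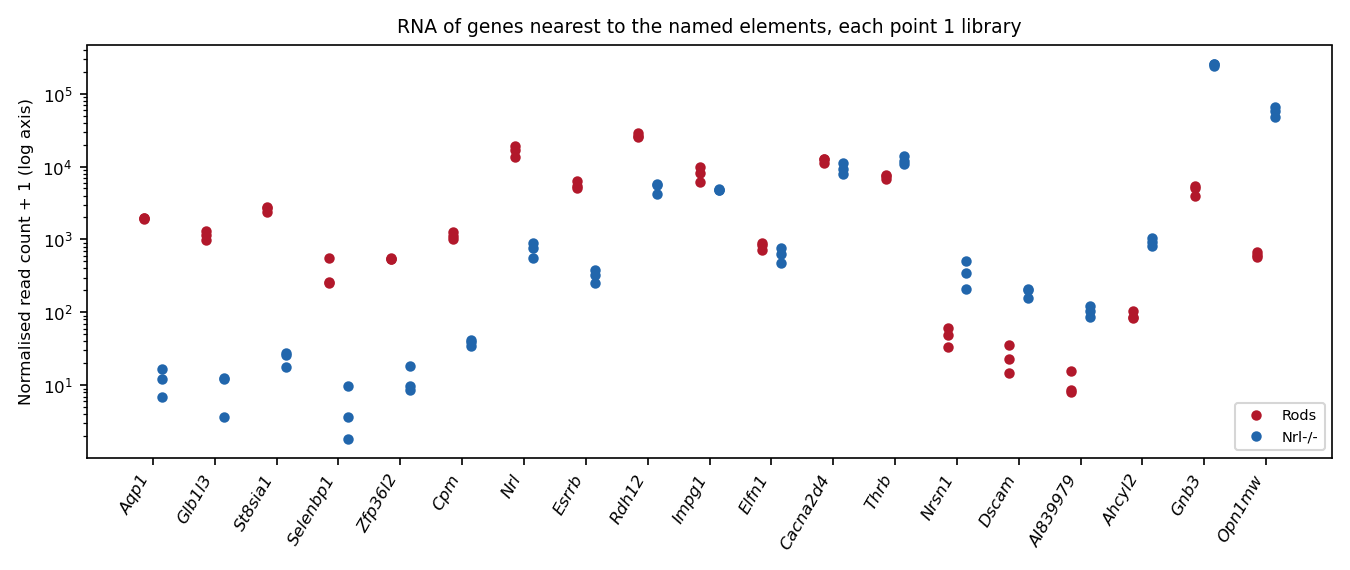
Normalised read count + 1 (y axis, log scale) of genes nearest to named elements, with each point 1 of 3 libraries per cell type. Genes are ordered by log2 fold change, from Aqp1, with 1931 to 1979 counts in rods and 5.85 to 15.7 in Nrl-/- photoreceptors, to Opn1mw, with 580 to 661 and 47634 to 65761.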

How the data were processed

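ATAC-seq (8 libraries) and RNA-seq (6 libraries) of sorted mouse photoreceptors were deposited as raw counts. Per the labels and the methods, the authors aligned ATAC-seq reads to GRCm38/mm10 with Bowtie2 2.2.3, kept nucleosome-free reads with inserts up to 100 bp and counted them with bedtools 2.24.0 in merged 200 bp peak windows. The authors' RNA-seq counts per gene came from STAR 2.4.2a and HTSeq 0.6.1p1, and the rows of unassigned reads (41.3 to 49.2% of a library) were left out. The deposited peak lists, called by the authors with MACS2 2.1.0 on pooled replicates at an IDR threshold of 0.01, give each summit with its fold enrichment and its −log10 q.

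Elements were placed in classes by summit windows and assigned to the nearest TSS of the RefSeq annotation of GRCm38.p6, whose genome also gave the sequences. Counts were fitted per comparison in edgeR 4.0.16 (R 4.3.3) with TMM scaling, filterByExpr, glmQLFit and glmTreat against a log2 fold change of 1, with Benjamini-Hochberg adjustment over all features tested. SE is the log2 fold change over the square root of the quasi-likelihood F. The scripts were tested on simulated data. Named elements were the 8 with the widest gap, 4 promoters, members near listed photoreceptor genes, the nearest genes with the largest RNA changes (6 per direction), the 4 with the smallest gap and those beside the limit of the rule. The members and lists were chosen with earlier results of these data known. Alternatives were DESeq2 1.42.0, RLE size factors, no filter, a test against no change, processed reads as library sizes, all groups in 1 fit, a replicate block, other member rules and each library left out. P-values measure the spread between these libraries, which the study describes as biological replicates. Bounds from a count of 0, at 3 fragments per library, cover counting error only.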

Additional observations from a re-analysis of the deposited data

How the results depend on the processing

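The double-sorted green cone libraries were the shallowest, and their counts of calls moved most. For rods over Nrl-/-, DESeq2 called 76 of the elements higher in rods and 0 lower, a test against no change called 364 and 12, and processed reads as library sizes gave 0 lower with a median log2 fold change of 1.74. Leaving out 1 library gave 148 to 184 higher and 0 to 1 lower. Outside Nrl-/- peak intervals 0 were lower and the median was 1.48. For double-sorted green cones over Nrl-/-, 2 were higher with RLE size factors, 2 with no filter, 15 higher and 1 lower in a test against no change, and 10 with all groups in 1 fit, and the median was 1.048 with processed reads. Leaving out 1 library gave 1 to 30 higher, 0 to 2 lower and a median of 0.85 to 1.03. For rods over double-sorted green cones, DESeq2 called 7 higher and 0 lower, a test against no change 96 and 17, no filter 1 lower with a median of 0.43, and processed reads 0 lower with a median of 0.77. Leaving out 1 library gave 13 to 71 higher, 0 to 5 lower and a median of 0.26 to 0.45. For single-sorted green cones over Nrl-/-, the count of 31 was 6 with DESeq2, 156 higher and 2 lower in a test against no change, 8 with processed reads (median 0.45), 17 with all groups in 1 fit and 19 to 34 with 1 library left out. For RNA, a test against no change called 170 nearest genes higher in rods and 92 higher in Nrl-/-, and 17 were higher in Nrl-/- outside the peak intervals. With the lowest −log10 q of the rod list required in every list, an alternative chosen after seeing the data as was the restriction to elements outside Nrl-/- peak intervals, 71 elements met the rule, 28 of them among the 524. Within 500 bp of a TSS lay 22.7%. Outside the intervals CTAATCC was in 13.6%, AGGTCA in 31.5%, GATAA in 30.4% and GGGCGG in 6.96%, and GGGCGG was in 14.4% of distal elements. Among distal elements GATAA was in 27.6% of the 524, 30.6% of those outside the intervals, 29.3% of the rod-only class and 26.3% of all. For rods over Nrl-/-, the Nrsn1 element ranged from −0.043 (without rod replicate 2) to 0.42, and the Impg1 element from −0.024 (without rod replicate 1) to 0.88. The 1700016L21Rik, Thrb, Opn1mw, Esrrb, Aqp1, Cacna2d4, distal Zfp36l2 and 1 of the Ahcyl2 elements lost their rod call in DESeq2. The causes were not tested. Deviations from the group mean correlated weakly between libraries of the same replicate number (r from 0.0117 to 0.127). With 2 ATAC-seq libraries per group this check gives only a value and its mirror image, so it cannot settle whether samples were paired. With a replicate block 175 elements were higher in rods and 1 lower, and 31 were higher in single-sorted green cones. The RNA calls then came to 71 genes up in rods and 27 up in the mutant.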

Other observations

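Because AGGTCA was frequent, the RNA of nuclear receptor genes was read after that result was seen. Nr2e3, a rod receptor, had 39275 ± 8955 normalised read counts in rods and 78.6 ± 20.4 in Nrl-/- photoreceptors (log2 fold change 8.94 ± 0.28, SE, adjusted p = 2.16e-10, edgeR glmTreat, higher in 3 of 3 rod libraries). Rorb had 55851 ± 7282 and 17860 ± 3092 (1.62 ± 0.16, adjusted p = 0.00141, edgeR). Rxrg, a cone receptor, was higher in the mutant, at 20.5 ± 5.34 and 4920 ± 161 (−7.93 ± 0.18, adjusted p = 4.33e-11, edgeR), as was Nr2f2 (−1.44 ± 0.13, adjusted p = 0.00414, edgeR). Esrrg, Rora, Nr1d1, Rxra and Thra did not pass the test.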
